A study of Rattus norvegicus with 12 samples.

Results

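The untreated astrocyte cultures described here are the control arms of a pair of experiments on primary cultures from the rat optic nerve head, chosen as the samples whose titles name a control for EGF. They make up 6 of the 12 samples of the series: 3 controls of a 4 h experiment and 3 controls of a 12 h experiment. In each experiment the control cultures had sister cultures that received epidermal growth factor (EGF), and those cultures are used below only where they bear on the controls. Each sample is total RNA, labelled with biotin and hybridised to a 1-colour Affymetrix array with 31099 probe sets.

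All groups were primary cultures of the same tissue, lysed as separate groups, and the labels give no strain, age, sex, medium or passage. The 4 h group and the 12 h group are both without EGF, and the hours are those of the EGF treatment of their sister cultures. What a control dish received in place of EGF is not stated. Whether replicates were separate cultures is not stated either, and where they were not, a p-value speaks only of technical spread among these 6 arrays. The controls at 4 h and at 12 h belong to separate experiments, and time, culture preparation and array handling cannot be told apart between them.

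Astrocytes of the optic nerve head line the bundles of retinal ganglion cell axons as these leave the eye. They are joined by gap junctions, take up glutamate and potassium, and carry intermediate filaments of vimentin and of glial fibrillary acidic protein (GFAP, from Gfap). A culture grown from this tissue can also hold fibroblasts of the sheath and the lamina, cells of blood vessels, microglia and cells of the oligodendrocyte lineage, so markers of those cells were read alongside.

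The control transcripts printed on every array set the groups apart before any gene was compared. Affymetrix arrays carry separate probe sets for the 3' end and the 5' end of some transcripts, and the ratio of their signals falls towards 1 when the labelled copies reach the 5' end. For rat beta-actin this ratio was 1.23, 1.20 and 1.61 on the control arrays of 4 h, and 21.4, 11.1 and 21.7 on those of 12 h. The groups did not overlap, and the gap lay mainly at the 5' end. The 5' actin signal was 62686.7 to 79374.8 at 4 h and 2241.5 to 4978.2 at 12 h, whereas the 3' signal was 86286.7 to 101055.5 and 48720.4 to 56936.8. GAPDH gave ratios of 0.933 to 0.987 at 4 h and 6.69 to 7.95 at 12 h. Bacterial transcripts added to the RNA, which no cell makes, showed the same gap. The ratio for Phe was 1.04 to 1.42 at 4 h and 14.8 to 26.9 at 12 h, and that for Thr was 1.56 to 2.04 and 19.6 to 36.1. Of the EGF arrays of 12 h, replicates 1 and 2 had actin ratios of 18.1 and 20.5, and replicate 3 had 1.24. This last array, called the low-ratio array below, was not free of the gap in every transcript. Its ratio was 1.19 for GAPDH, 2.14 for Phe, 3.02 for Thr and 2.92 for hexokinase, each above every 4 h control and below every 12 h control. For actin and for Lys, another added bacterial transcript (0.875), its ratio lay within the range of the 4 h controls. A probe set far from the 3' end of its transcript can therefore read lower at 12 h with no difference in the RNA, and each comparison between the groups below carries that limit.

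**Figure D1:**
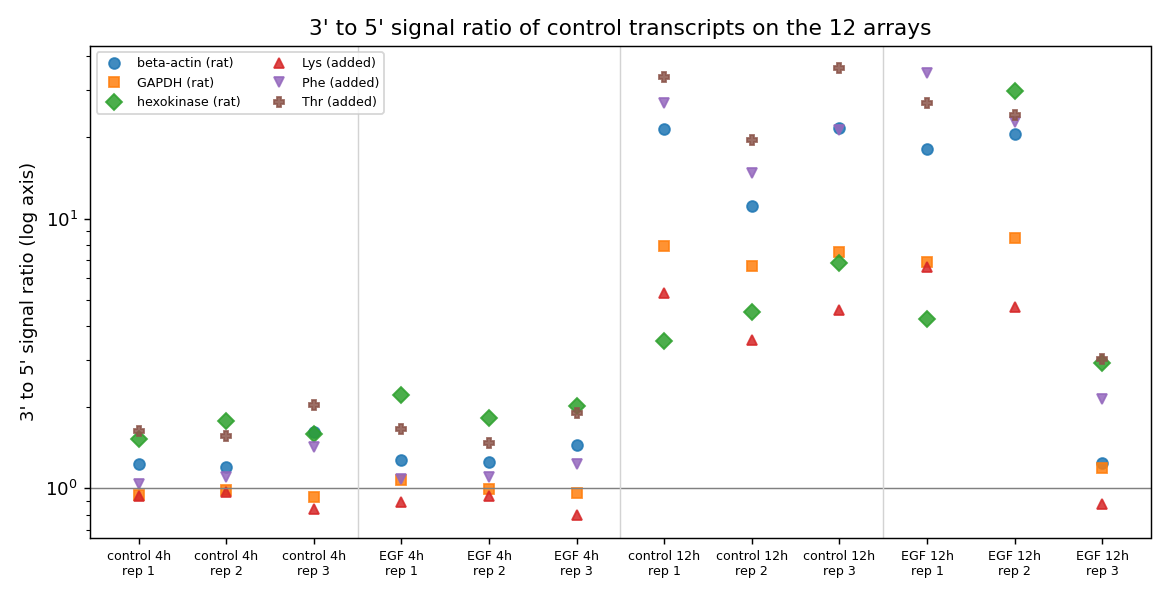
Ratio of the 3' to the 5' signal (log axis) of 3 rat transcripts and 3 added bacterial transcripts on each of the 12 arrays, 1 point per transcript and array, with a line at a ratio of 1. On the control arrays of 4 h the actin ratio lies at 1.20 to 1.61 and on those of 12 h at 11.1 to 21.7, and EGF replicate 3 at 12 h, at 1.24, is the low array of its time.

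Over the tested probe sets, Pearson's r between arrays was 0.962 to 0.972 within the 4 h controls, 0.972 to 0.978 within the 12 h controls, and 0.830 to 0.844 between the groups. Probe sets are not independent replicates, so these are descriptions of the arrays. Median signals of the 6 arrays ran from 325.4 to 415.2. Replicate 3 of the 4 h controls stood apart in its hybridisation controls, with a signal of 24460.8 for the bacterial BioD probe set against at most 594.8 on the other 5 control arrays. EGF replicate 3 of 4 h shared this mark, at 21080.5.

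By signal, Vim and the brightest probe set of the gap junction gene Gja1 read very high in the untreated cultures. The Gfap signal lay near or below the middle of the array. To place a probe set, its signal was ranked among the 31042 non-control probe sets of the same array. This percentile is a place on the array and no measure of abundance, since probe sets differ in affinity, and no gene is set against another by signal. The background is that 41.6% of all probe sets lay above their array's median on all 6 arrays and 40.9% on none.

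Vim, which encodes vimentin, read 60639.8, 66645.5 and 61003.8 signal units at 4 h and 76713.8, 66141.0 and 67556.2 at 12 h. It lay at or above the 99.7th percentile on every control array, and the groups overlapped. Its log2 difference, given here and below as the 12 h controls minus the 4 h controls, was 0.16 ± 0.15 (SE; limma with Benjamini-Hochberg adjustment, adjusted p = 0.417). With quantile normalization it was 0.47 (adjusted p = 0.00166), so the call for Vim depends on the scaling. Gfap, the classical astrocyte filament gene, has 1 probe set, which read 255.2, 228.6 and 162.1 at 4 h and 161.4, 93.7 and 347.4 at 12 h. These values lay between the 24.3rd and the 51.0th percentile and in the dim range that was not tested, so the array gave no clear GFAP signal in cultures labelled as astrocytes. A dim signal can also come from a probe set with little affinity, and no other probe set for Gfap was there to compare.

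Glul, the glutamine synthetase by which astrocytes clear glutamate, lay between the 92.4th and the 93.7th percentile. Its brightest probe set read 6570.2 ± 359.3 (SD, n = 3) at 4 h and 7210.1 ± 574.7 at 12 h, a log2 difference of 0.13 ± 0.15 (limma, adjusted p = 0.507). The other probe sets of Glul were lower at 12 h: one went from 4591.5 to 4948.6 at 4 h down to 568.0 to 712.1 at 12 h, and the last from 6935.3 to 8096.5 down to 4580.7 to 5019.8. One gene thus gave values of 0.13, -2.86 and -0.63 from its 3 probe sets.

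Aldoc, the aldolase of brain and a common astrocyte marker, read 260.0, 194.5 and 26.9 at 4 h and 2234.4, 2811.1 and 2920.7 at 12 h. All 3 of its 12 h values were above all 3 of its 4 h values, and the log2 difference was 4.18 ± 0.65 (limma, adjusted p = 3.10e-04). The 4 h values lay at or below the array medians, so the size of this difference depends on the offset of 24.4 signal units added before logs were taken. Cldn11, a tight junction claudin of myelin and other sheaths, lay between the 97.8th and the 99.7th percentile. Its brighter probe set read 16587.2, 19291.2 and 19930.6 at 4 h and 47854.2, 45758.0 and 44080.1 at 12 h, a log2 difference of 1.30 ± 0.12 (limma, adjusted p = 9.00e-06). The dimmer probe set of Cldn11 went the other way, from 2622.6 to 3720.0 at 4 h to 421.3 to 936.5 at 12 h. The mean of both probe sets gave -0.49, so the array settles no direction for Cldn11.

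Of the 32 genes on the astrocyte list that the array names, 9 lay above the array median on all 6 control arrays, 15 on none, and 6 above the 90th percentile on all 6. Gja1, the connexin of astrocyte gap junctions, read 62981.1 ± 6006.0 at 4 h and 69969.0 ± 2530.8 at 12 h on its brightest probe set. Another probe set of Gja1 read 7812.7 to 8265.8 at 4 h and 378.4 to 621.9 at 12 h, and the last was dim. Slc4a4, a sodium bicarbonate cotransporter, read 19623.1 ± 447.8 and 29165.4 ± 1264.0. Clu, which encodes the secreted chaperone clusterin, read 27053.8 ± 1962.5 and 56348.6 ± 8408.2. The genes that are low or dim include several held to define mature astrocytes. Aqp4, the water channel of astrocyte endfeet, read 47.1 to 99.9 at 4 h and 76.3 to 108.2 at 12 h on its brightest probe set. The glutamate transporter Slc1a2 read 27.3 to 331.0 and 42.0 to 136.0. The folate enzyme Aldh1l1 read 20.8 to 151.1 and 13.8 to 187.4. S100b, a calcium binding protein, lay near the middle of the arrays, at 295.8 to 473.4 and 200.4 to 371.8. Slc1a3, the other astrocyte glutamate transporter, had 3 probe sets, none of which exceeded 502.3 on any control array. Sox9 had no probe set with its name alone. Of the astrocyte genes read here, Vim, Gja1, Glul and Slc4a4 were thus bright on this array and Gfap, Aqp4, Slc1a2 and Aldh1l1 dim. Which cells these signals came from was not tested, so they do not settle the label of astrocyte.

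Many fibroblast and meningeal markers lay near the top of the arrays. Of the 22 on the array, 16 lay above the array median on all 6 arrays, 2 on none, and 7 above the 90th percentile on all 6. The collagen chain Col3a1 read 98577.5 ± 8750.0 at 4 h and 100304.2 ± 5462.7 at 12 h, at the very top of every array. Col1a2, a chain of type I collagen, lay at the 99.8th to 99.9th percentile, with 75358.9 ± 5676.2 and 65912.2 ± 9401.2. Transcription factors of mesenchyme and meninges were read as well. Twist1 gave 4875.0 ± 589.4 at 4 h and 6815.7 ± 855.7 at 12 h. Foxc1 gave 1685.9 ± 685.7 and 1328.4 ± 114.2, at the 70.0th to 81.1st percentile. The growth factor Igf2 read 45318.4 ± 9001.4 and 34119.9 ± 8852.0. In RNA from a whole culture, fewer cells of a type and less RNA per cell cannot be told apart, and which cells the collagen signal came from was not tested.

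Markers of the other cell types were mostly dim. The astrocyte list had 9 of 32 members above the array median on all 6 arrays, beside 41.6% of all probe sets. By that count it did not stand out from the oligodendrocyte, Schwann and endothelial and mural lists given here. Of the 18 neuron markers, 0 lay above the array median on all 6 arrays, with Tubb3, Snap25 and Nefl all dim. Of the 18 microglia and macrophage markers, Cd14 alone did so (3587.2 ± 237.1 at 4 h and 2867.2 ± 217.4 at 12 h), while the defining Itgam, Ptprc, Cx3cr1 and the C1q chains were dim. Of the 16 oligodendrocyte lineage markers 5 did, Cldn11 among them, while Mog, Olig2 and Sox10 were dim. Of the 10 Schwann cell markers 3 did, while Ngfr and Sox10 were dim. Among 10 markers of retina, pigment epithelium and melanocytes, 1 did. Of the 19 markers of endothelium and mural cells 5 did, those of contractile cells, while the endothelial Pecam1, Cdh5 and Kdr were dim.

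**Figure D2:**
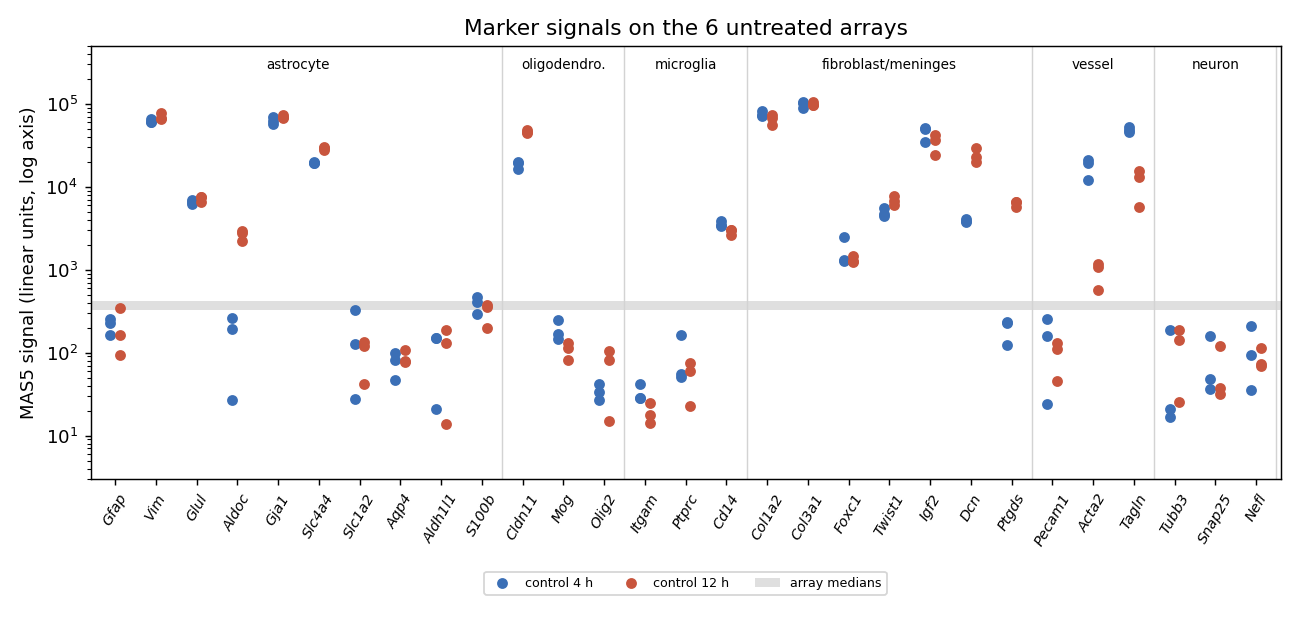
MAS5 signal (log axis) of markers of 6 kinds of cell on the 6 untreated arrays, 1 point per array, with the range of the array medians as a grey band; each gene is shown by its brightest probe set. Vim, Gja1 and the collagens lie at the top of the arrays, Gfap, Aqp4, Slc1a2 and the neuronal genes at or below the medians, and Aldoc and Ptgds lie below the band at 4 h and above it at 12 h.

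The controls of 12 h differed from those of 4 h across much of the array. With adjusted p under 0.05 in limma, 4425 of 18625 tested probe sets were higher at 12 h (23.8%) and 4033 lower (21.7%), 45.4% in all, at a median SE of 0.23. At least 2-fold higher were 1461 (7.84%) and at least 2-fold lower 2562 (13.8%). When each array was centred on its own median, 5534 were higher and 3218 lower, so that the share of calls that were higher went from 52.3% to 63.2%, and the median log2 difference of all tested probe sets went from 0.08 to 0.24. Without replicate 3 of the 4 h controls, 3904 were higher and 3457 lower. Over genes, each read from its brightest tested probe set, 2919 of 10261 were higher (28.4%) and 1705 lower (16.6%), 45.1% in all, with a median log2 difference of 0.17. At least 2-fold higher were 798 genes (7.78%) and at least 2-fold lower 847 (8.25%). The arrays of the groups did not overlap in 6439 genes (62.8%). Averaging the probe sets of a gene changed the gene counts to 2388 higher and 2342 lower.

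The gene with the largest higher value at 12 h was Gpc3, a heparan sulphate proteoglycan of the cell surface. It read 573.0, 393.8 and 237.7 at 4 h and 26150.9, 30499.9 and 35487.7 at 12 h. The log2 difference of Gpc3 was 6.24 ± 0.27 (limma, adjusted p = 2.13e-08). The EGF array of 12 h with the low 3' to 5' ratio read 25804.3 for Gpc3, and the 3 EGF arrays of 4 h read 148.8 to 249.6. Gpc3 was thus high on the 12 h array with the low actin ratio as well.

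Tnc, the matrix protein tenascin C, had the tightest values of this group. It read 605.8, 543.7 and 655.9 at 4 h and 14681.8, 14600.8 and 15315.6 at 12 h, a log2 difference of 4.58 ± 0.12 (limma, adjusted p = 6.84e-11). On the EGF array of 12 h with the low ratio Tnc read 9497.1, against 2518.9 to 2624.3 on the EGF arrays of 4 h. Ptgds, the prostaglandin D synthase of the meninges and glia, read 124.0 to 234.3 at 4 h and 5708.3 to 6499.8 at 12 h (4.87 ± 0.45; limma, adjusted p = 7.06e-06), and 6957.1 on the low-ratio EGF array.

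Gjb6, an astrocyte connexin, read 24.1, 13.3 and 13.4 at 4 h and 930.5, 1082.0 and 1354.0 at 12 h (4.79 ± 0.69; limma, adjusted p = 2.05e-04). Its 4 h signal lay at or under the offset, so the size of that difference is set in part by the offset. The RNA-binding protein gene Khdrbs3 differed by 5.94 ± 0.33, the transcription factor genes Onecut2 and Meis2 by 4.88 ± 0.48 and 4.57 ± 0.28, and Fcrla, of the Fc receptor-like family, by 4.40 ± 0.48. Rapgef5, an exchange factor for Rap proteins, differed by 4.31 ± 0.25, the small GTPase gene Rhou by 3.75 ± 0.23 and the glutamate receptor subunit gene Gria2 by 3.73 ± 0.55. For all 12 of the genes with the largest higher values, Aldoc included, the groups did not overlap, as the choice of these genes required. Gjb6, Aldoc, Onecut2 and Gria2 had a mean signal high enough to be tested only through the 12 h controls. Gjb6, Aldoc and Rapgef5 were low on all EGF arrays of 12 h, with at most 117.7, 52.8 and 230.9 signal units, so no EGF array speaks to them. Onecut2 read at most 297.2 on those arrays. Gria2 read 328.3 and 267.4 on the high-ratio EGF arrays of 12 h and 49.3 on the low-ratio array, close to the 34.8 to 45.6 of the EGF arrays of 4 h.

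Spp1, which encodes the secreted phosphoprotein osteopontin, was the gene lowest at 12 h against 4 h. It read 23459.7, 26764.8 and 30628.2 at 4 h and 492.1, 596.5 and 321.5 at 12 h, a log2 difference of -5.80 ± 0.47 (limma, adjusted p = 2.64e-06). On the EGF arrays of 12 h, Spp1 read 3522.3 and 4722.4 on those with high 3' to 5' ratios and 21055.5 on the one with a low ratio. The low-ratio array lay nearer to the EGF arrays of 4 h (42311.3 to 53684.0) than the other 2 did. Mfap4, a protein of elastic microfibrils, read 32620.1 to 42443.2 at 4 h and 516.8 to 1271.6 at 12 h (-5.45 ± 0.51; limma, adjusted p = 8.50e-06). It read 2323.6 on the low-ratio EGF array and 30413.1 to 34998.5 on the EGF arrays of 4 h.

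Hars1, the histidine tRNA synthetase that every cell uses, was among the 12 genes with the largest lower values. Its brighter probe set read 4066.5 to 4743.0 at 4 h and 172.7 to 250.2 at 12 h (-4.34 ± 0.59; limma, adjusted p = 1.29e-04), and its other probe set 2609.3 to 3481.3 and 821.8 to 1081.2 (-1.64 ± 0.28). On the EGF arrays of 12 h the brighter probe set of Hars1 read 291.9 and 417.9 at high ratios and 3067.6 at the low ratio.

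Acta2, the smooth muscle actin of contractile cells, read 20833.5, 19218.0 and 11925.1 at 4 h and 1086.4, 1187.8 and 576.9 at 12 h. Its log2 difference was -4.18 ± 0.32 (limma, adjusted p = 1.33e-06). The low-ratio EGF array of 12 h read 2026.4 for Acta2, against 9389.2 to 13674.8 on the EGF arrays of 4 h and 939.6 and 1089.7 on the other EGF arrays of 12 h. Ifi27l2b, of an interferon-inducible family, differed by -4.60 ± 0.21, and RT1-T24-3, of the class I histocompatibility genes, by -4.18 ± 0.39. The bone morphogenetic protein family ligand gene Gdf6 differed by -4.49 ± 0.65, Tmem158 by -4.49 ± 0.81, the aldo-keto reductase gene Akr1c14 by -4.43 ± 0.28 and Olr1, a receptor for oxidised lipoprotein, by -4.31 ± 0.42. The value of Tmem158 came from its brighter probe set, and its other tested probe set gave 0.09, so its probe sets disagree. Mnda, a nuclear protein gene of myeloid cells, differed by -4.17 ± 0.29 and Ltbp2, which binds to elastic fibres, by -4.16 ± 0.52. On the low-ratio EGF array Gdf6 and Tmem158 read 1002.1 and 664.5, against 73.8 to 171.2 and 30.1 to 35.4 on the other EGF arrays of 12 h. RT1-T24-3, Olr1 and Akr1c14 stayed low there, at 108.9, 64.8 and 5.1.

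**Figure D3:**
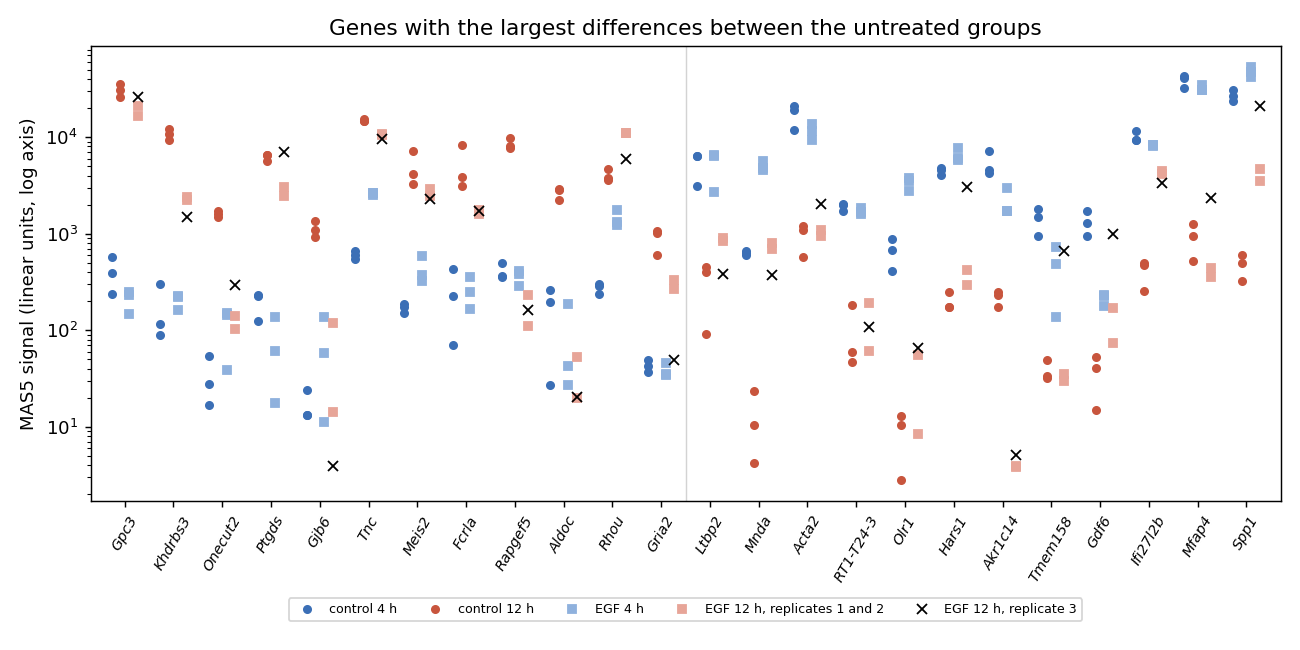
MAS5 signal (log axis) of the 12 genes with the largest higher and the 12 with the largest lower values in the 12 h controls, 1 point per array, with the EGF arrays beside the controls and EGF replicate 3 at 12 h as a cross. Gpc3, Tnc and Ptgds are as high on the cross as on other 12 h arrays or higher than on any 4 h array, while for Spp1, Hars1, Gdf6 and Tmem158 the cross lies well above the other EGF arrays of 12 h.

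Gene groups were read by how many of their tested members passed in each direction, to be set against the 28.4% of all genes that were higher, the 16.6% that were lower and the median of 0.17. A member was tested only if its mean signal over the 12 arrays passed the filter on dim probe sets, so the counts describe tested members alone. Of the astrocyte list, 19 of the 32 members on the array were tested, 4 were higher and 2 lower, with a median of -0.02. Beside Aldoc, Gjb6, Clu (1.05 ± 0.16) and Slc4a4 (0.57 ± 0.12), which were higher, stood Fgfr3, a fibroblast growth factor receptor of astrocytes, at 43107.5 to 56211.5 at 4 h and 12504.4 to 14281.0 at 12 h (-1.89 ± 0.22; limma, adjusted p = 3.88e-05). The cystine transporter Slc7a11 was the other lower gene (-1.95 ± 0.23). Aldoc and Gjb6 passed the filter on dim probe sets only through the 12 h controls in which they were high. Their place among the tested members is therefore no support for the count of higher genes. Averaging probe sets gave 4 higher and 5 lower. The list of reactive astrocyte genes had 2 of 20 higher, Tnc and the ferroxidase gene Cp (1.44 ± 0.14), and 6 lower, among them the lipocalin Lcn2 (-2.74 ± 0.36). Without replicate 1 of the 12 h controls 3 were lower.

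Genes of contraction were lower as a group. Of 26 tested members of the actin and contractility list, 17 were lower and 1 higher, with a median of -0.96. The actin crosslinker Actn1 read 14241.5 to 20615.4 at 4 h and 4047.1 to 5409.7 at 12 h (-1.85 ± 0.15; limma, adjusted p = 2.96e-06). Myl9, a myosin light chain, read 26288.1 to 29261.2 and 6469.3 to 9296.0 (-1.76 ± 0.15; limma, adjusted p = 4.11e-06). Tagln, the actin binding transgelin, read 45498.6 to 51932.5 and 5666.4 to 15456.7 (-2.21 ± 0.30). Ezr, which links actin to the membrane, was the higher member (1.01 ± 0.18). Between the EGF groups the same list had a median of -0.24 from 4 h to the high-ratio arrays of 12 h and -0.09 to the low-ratio array.

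Markers of endothelium and mural cells moved with the contractile genes, since Acta2, Tagln and Cnn1 stand in both lists. Of 9 tested, 5 were lower and 0 higher, with a median of -1.64, and the growth factor receptor Pdgfrb was among the lower (-1.74 ± 0.30; limma, adjusted p = 6.87e-04). Another probe set of Pdgfrb was higher (1.36 ± 0.50), and the mean of its probe sets did not pass (-0.51; adjusted p = 0.105). For the list, averaging probe sets gave 4 lower and 0 higher, with a median of -0.51. An offset 4 times larger gave the list a median of -1.03. The summed signal of the 19 markers was 72136.9 to 82799.3 at 4 h and 12347.0 to 23567.7 at 12 h, and the endothelial Pecam1, Cdh5 and Kdr were dim in both groups. Tagln makes up most of the 4 h sum. The part of mural cells in the contractile difference was not tested.

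Matrix and fibroblast genes went both ways. Of 43 tested collagen and matrix genes, 10 were higher and 15 lower, with a median of -0.21. Without replicate 1 of the 12 h controls 6 were higher. Dcn, the small proteoglycan decorin, read 3768.2 to 4079.4 at 4 h and 19745.4 to 29639.3 at 12 h (2.60 ± 0.16; limma, adjusted p = 2.99e-07). Fbln5, an elastic fibre protein, read 5842.7 to 7690.2 and 1101.9 to 1341.8 (-2.46 ± 0.17; limma, adjusted p = 7.58e-07). Of 20 tested fibroblast and meningeal markers 6 were higher and 3 lower. Crabp2, which binds retinoic acid, was higher (2.40 ± 0.19), and Thy1 (-2.99 ± 0.45), S100a4 (-1.39 ± 0.16) and Col1a1 (-1.10 ± 0.33) were lower. The summed signal of that marker list overlapped between the groups, at 383201.3 to 433027.9 at 4 h and 364448.2 to 414514.9 at 12 h.

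Markers of the remaining cell types had few tested members. The summed oligodendrocyte list was 30499.1 to 31963.8 at 4 h and 62139.1 to 67527.3 at 12 h, with 4 of 7 tested members higher and 1 lower. Cldn11, whose probe sets disagree, makes up most of that sum, and the mean of probe sets gave 2 higher and 2 lower. The summed microglia list was 6929.7 to 7469.7 and 4639.9 to 5261.3, with 0 of 7 higher and 1 lower, the invariant chain gene Cd74 (-2.90 ± 0.43), which also stands in the antigen presentation list. The summed neuron list was 3116.7 to 3615.0 and 1904.5 to 2443.2, with 1 of 4 higher (2 without replicate 3 of the 4 h controls) and 1 lower, the ubiquitin hydrolase Uchl1 (-3.62 ± 0.62). The summed Schwann list was 18206.4 to 20045.3 and 9790.1 to 12445.9, with 0 of 3 higher and 3 lower, 1 of them when the arrays were centred on their medians. The retina and pigment list had 1 tested member, which did not pass. The part of these cells in the differences between the groups was not tested.

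Interferon response and antigen presentation genes were lower at 12 h with none higher. Of 22 tested, 15 were lower and 7 passed in neither direction, with a median of -0.92. Interferons act through the ISGF3 and IRF factors, which bind an interferon response element in the promoters of their target genes. Mx2, an antiviral GTPase, read 2618.0 to 3186.6 at 4 h and 536.6 to 701.6 at 12 h (-2.23 ± 0.19; limma, adjusted p = 3.37e-06). Oas1a, which makes the messenger that activates RNase L, read 1020.1 to 1404.2 and 169.4 to 305.3 (-2.22 ± 0.27; limma, adjusted p = 5.69e-05). The ubiquitin-like Isg15 (-2.19 ± 0.26) and its protease Usp18 (-2.32 ± 0.27) were lower as well. The factors Irf9 (-0.84 ± 0.13) and Irf7 (-0.67 ± 0.17) were lower by less, and Irf1 (0.38), B2m (-0.17) and Tap1 (-0.45) did not pass. With the arrays centred on their medians, 14 were lower and 1 higher.

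The promoters of these genes were read because the members moved together. The letters GAAANNGAAA, the core of the interferon response element, were searched on both strands (TTTCNNTTTC on the other) in the 250 bases before each gene's start, in RefSeq promoters of the rat build GRCr8. They stood in 1140 of 33469 promoters (3.41%). Of the 15 lower members 11 had a promoter in that table and 6 of these held the letters, and of the 7 other members 6 had one and 3 held them. A match is a description of the sequence and not a bound site. The stretches below hold the match in capitals with the bases around it, from 3 lower members and from B2m, which did not pass. They lie at chr12:41330400-41330465 (Oas1a, plus strand), chr1:241527257-241527316 (Ifit3, plus strand), chr1:205800058-205800117 (Irf7, minus strand) and chr3:129549155-129549214 (B2m, plus strand). Each is written 5' to 3' on the strand of its gene, and overlapping matches are in capitals as 1 run.
Oas1a: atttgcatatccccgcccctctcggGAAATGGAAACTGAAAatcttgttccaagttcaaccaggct
Ifit3: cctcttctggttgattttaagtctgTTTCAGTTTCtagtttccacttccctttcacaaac
Irf7: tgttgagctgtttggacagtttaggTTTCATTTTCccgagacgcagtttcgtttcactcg
B2m: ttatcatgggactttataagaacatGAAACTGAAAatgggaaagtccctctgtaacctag
The match of Oas1a ends 25 bases before the gene's start and that of Ifit3 34 bases before it. B2m holds the letters as well, 140 bases before its start, so the letters did not part members that were lower from those that did not pass.

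Cytokine and growth factor genes were lower more often than higher. Of 20 tested cytokine and chemokine genes, 11 were lower and 3 higher, with a median of -1.13. The 3 higher became 0 without replicate 2 of the 4 h controls or replicate 3 of the 12 h controls, and 1 without replicate 1 of either group. The monocyte chemokine gene Ccl2 read 11027.1 to 12696.0 at 4 h and 2174.9 to 2965.2 at 12 h (-2.13 ± 0.16; limma, adjusted p = 1.23e-06). The adhesion molecule Vcam1 differed by -2.19 ± 0.20, the chemokine Cxcl12 by -1.50 ± 0.17 and the macrophage growth factor gene Csf1 by -1.86 ± 0.30. The interleukin Il6 read 1143.0 to 1465.1 at 4 h and 33.2 to 162.4 at 12 h. Of 26 tested growth factors, 15 were lower and 3 higher, with a median of -0.62. The EGF receptor ligands Tgfa (-2.13 ± 0.28), Btc (-2.24 ± 0.28), Hbegf (-2.70 ± 0.55), Areg (-1.15 ± 0.23) and Ereg (-0.97 ± 0.29) were lower in the controls of 12 h, and the ligand gene Egf itself was higher (1.23 ± 0.36). Ptn, the heparin binding pleiotrophin, read 501.0 to 962.9 at 4 h and 2055.9 to 7668.9 at 12 h (2.65 ± 0.40; limma, adjusted p = 2.52e-04).

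Immediate early genes, which answer within minutes to serum or growth factors, were lower in 10 of 21 tested and higher in 4, with a median of -0.63. Fos read 6096.0, 4591.6 and 7601.6 at 4 h and 644.1, 570.1 and 444.4 at 12 h (-3.39 ± 0.20; limma, adjusted p = 1.77e-07). Junb (-2.84 ± 0.30), Egr1 (-1.11 ± 0.13) and Myc (-1.18 ± 0.16) were lower as well. Jun (0.47 ± 0.17), Jund (0.70 ± 0.18), Klf10 (0.80 ± 0.17) and Ier5 (0.57 ± 0.13) were higher. The other tested probe set of Ier5 was called lower, at -3.40, so the array settles no direction for Ier5. When probe sets were averaged, 13 were lower and 1 higher.

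Clock genes were higher at a share near that of all genes (28.4%). Of 17 tested members 6 were higher, Per1, Per2, Per3, Hlf, Nr1d2 and Bhlhe41, and 1 was lower, Bhlhe40, with a median of 0.26 beside 0.17 for all genes. The period gene Per3 read 394.9 to 687.2 at 4 h and 1259.9 to 1641.3 at 12 h (1.33 ± 0.28; limma, adjusted p = 0.00195). Per1 read 113.0 to 625.9 and 1094.8 to 1526.7 (1.95 ± 0.48; limma, adjusted p = 0.00523), and Per2 read 1669.8 to 2060.6 and 2769.3 to 2991.0 (0.61 ± 0.15; limma, adjusted p = 0.00630). Bhlhe40, a repressor of the clock, read 985.5 to 1364.6 and 162.8 to 338.0 (-2.02 ± 0.33; limma, adjusted p = 4.03e-04). Bmal1 (-0.10), Clock (0.26), Nr1d1 (0.04) and Dbp (-0.40) did not pass. The mean of its probe sets turned Nr1d2 from 0.76 to -0.39, and the list then had 5 higher and a median of -0.08. The hour of day at which each group was lysed is not stated.

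Counts of cell cycle genes lay near or below the share of all genes. Of 26 tested G2 and mitosis genes 8 were higher and 0 lower, with a median of 0.53, beside 28.4% higher among all genes. Mki67, the proliferation marker, read 502.2 to 773.7 at 4 h and 1301.4 to 1593.7 at 12 h (1.15 ± 0.28; limma, adjusted p = 0.00535), and the spindle regulator Racgap1 differed by 1.23 ± 0.22. The mean of the probe sets of Racgap1 did not pass (0.56; limma, adjusted p = 0.0683). Without replicate 3 of the 12 h controls 5 mitosis genes were higher. Of 26 tested G1 and S phase genes 6 were higher, such as the replication helicase subunit Mcm2 (1.46 ± 0.25), and 1 lower, the cyclin Ccnd1 (-1.41 ± 0.19). Of 20 tested FoxO and quiescence genes 6 were higher, among them Ccng2 (1.26 ± 0.14) and Txnip (0.69 ± 0.13), and 4 lower. Averaging probe sets gave 4 higher and 5 lower in the FoxO list, and its median turned from 0.29 to -0.19.

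Metabolic and stress lists were mixed or lower. Of 24 tested genes of endoplasmic reticulum stress and the ATF4 pathway, 11 were lower and 1 higher, the latter lost without replicate 2 or 3 of the 4 h controls or replicate 1 or 2 of the 12 h controls (0 higher). Atf4 itself read 18770.1 to 21836.4 at 4 h and 5384.2 to 5919.3 at 12 h (-1.86 ± 0.18; limma, adjusted p = 1.18e-05), and its target Asns, asparagine synthetase, differed by -1.86 ± 0.19. Of 14 tested iron and lipid transport genes 5 were lower and 2 higher. Lpl, the lipoprotein lipase, read 47048.5 to 50323.3 and 6112.9 to 8216.9 (-2.79 ± 0.12; limma, adjusted p = 2.13e-08), and the iron exporter Slc40a1 differed by -2.97 ± 0.28. Of 7 tested complement genes 1 was higher and 2 lower, among them the C1 inhibitor Serping1 (-2.27 ± 0.17). Of 20 tested NRF2 and xenobiotic genes 4 were higher and 8 lower (2 higher without replicate 2 of the 4 h or replicate 1 of the 12 h controls). Of 25 tested glycolysis and hypoxia genes 4 were higher and 8 lower (2 higher without replicate 2 of the 12 h controls). Of 19 tested cholesterol synthesis genes 3 were higher and 3 lower (1 higher without replicate 1 or 2 of the 4 h controls or replicate 1 or 3 of the 12 h controls). Of 13 tested glucocorticoid targets 1 was higher and 3 lower. Of 12 tested junction and channel genes 5 were higher and 1 lower, with a median of 0.36. Averaging probe sets gave 4 higher and 4 lower in that list, with a median of 0.03, so it has no settled direction. With the arrays centred on their medians, the list medians of glycolysis, cholesterol synthesis, glucocorticoid targets and complement turned from -0.07, -0.001, -0.08 and -0.14 to 0.10, 0.17, 0.09 and 0.02, and that of the astrocyte list from -0.02 to 0.15.

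Ribosomal protein and respiratory chain genes, which every cell uses, were read as a check on the arrays. Of 23 tested ribosomal protein genes 17 were lower and 0 higher, with a median of -0.75. Rps24 read 72946.8 to 89357.3 at 4 h and 18532.9 to 22986.0 at 12 h (-2.02 ± 0.33; limma, adjusted p = 4.21e-04). On the EGF arrays of 12 h, Rps24 read 21147.1 and 32790.6 at high ratios and 75443.2 at the low ratio. Of 38 tested genes of oxidative phosphorylation 17 were lower and 9 higher. The cytochrome oxidase subunit Cox7b read 21540.0 to 26599.1 and 5130.1 to 6276.1 (-2.08 ± 0.36; limma, adjusted p = 6.05e-04), and 26691.6 on the low-ratio EGF array. Without replicate 2 of either control group, or with the arrays centred on their medians, the lower members of this list numbered 10. The higher members numbered 4 without replicate 1 of the 12 h controls, and 5 without replicate 1 of the 4 h or replicate 3 of the 12 h controls.

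Probe sets of 1 gene often went apart. Among the 2944 genes with 2 or more tested probe sets, all probe sets of a gene lay in one direction in 1336 (45.4%), and the highest and lowest log2 difference of a gene lay a median of 1.14 apart. In 465 genes (15.8%) one probe set was called higher and another lower. The brightest probe set had a median difference of 0.22 and the dimmest one of -0.62. Set beside this, the distance was a median of 0.24 for EGF against control at 4 h, where all arrays have low 3' to 5' ratios, and 0.40 for the high-ratio EGF arrays against control at 12 h, where all arrays have high ones. From the EGF arrays of 4 h to those of 12 h it was 1.11 on the high-ratio arrays and 0.44 on the low-ratio array. The wide distances were those between low-ratio and high-ratio arrays. Gja1 is an example, whose brightest probe set read 56938.8 to 68950.1 at 4 h and 67523.1 to 72577.0 at 12 h, and another 7812.7 to 8265.8 and 378.4 to 621.9. The value for the low-ratio array rests on 1 array that had received EGF. Positions of the probe sets along their transcripts were not at hand, and the cause of the distances was not tested.

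The low-ratio EGF array of 12 h was read for the probe sets called between the controls, with differences taken among EGF arrays alone. Of the 2562 probe sets called at least 2-fold lower in the controls, 1856 (72.4%) were also at least 2-fold lower from the EGF arrays of 4 h to the high-ratio EGF arrays of 12 h. In these 1856 the median difference was -1.93 on the high-ratio arrays and -0.49 on the low-ratio array. The low-ratio array was still 2-fold lower in 538 (29.0%) and was above the 4 h mean in 398 (21.4%). Of the 1461 called at least 2-fold higher, 733 (50.2%) were also higher on the high-ratio EGF arrays, by a median of 1.48. On the low-ratio array these 733 had a median of 0.91, and 42 (5.73%) lay below the 4 h mean. Each of these readings rests on 1 array that had received EGF and has no replicate, and the high-ratio arrays were selected to be 2-fold apart while the low-ratio array was not. The same shares were not taken over all tested probe sets, so these counts have no background to be set against.

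**Figure D4:**
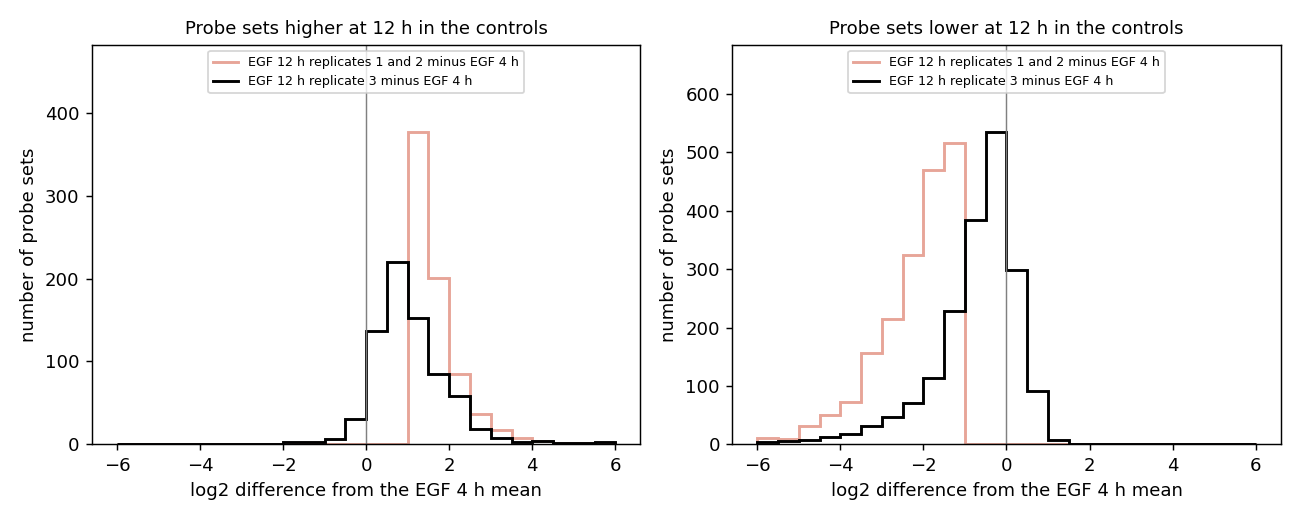
Number of probe sets by log2 difference from the mean of the EGF arrays of 4 h, for probe sets at least 2-fold higher (left) or lower (right) both in the 12 h controls and on EGF replicates 1 and 2 at 12 h; the pale line is those replicates, selected to lie past 1 in size, and the black line is EGF replicate 3. In the right panel the black line has a median of -0.49, and in the left panel a median of 0.91.

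Gene lists differed in how they read on that array. Over all tested genes the median between the controls was 0.17. From EGF at 4 h it was 0.19 to the high-ratio EGF arrays of 12 h and 0.13 to the low-ratio array. The interferon list had a median of -0.92 between the controls, -1.18 from EGF at 4 h to the high-ratio EGF arrays of 12 h and -1.15 to the low-ratio array. The cytokine list had -1.13, -1.80 and -1.71 and the growth factor list -0.62, -1.16 and -1.22 in the same order. These lists were about as low on the low-ratio array as on the high-ratio ones. The ribosomal protein list had -0.75, -0.37 and -0.09, and oxidative phosphorylation had -0.15, 0.08 and 0.29, so the ribosomal list was near 0 on the low-ratio array. The mitosis list had 0.53, 0.24 and 0.01, the clock list 0.26, -0.11 and -0.03, and the FoxO list 0.29, 0.41 and 0.46. The endothelial and mural list, with -1.64, -2.42 and -1.70, was low on all 3. EGF itself can act on these genes over time, and its part was not tested.

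**Figure D5:**
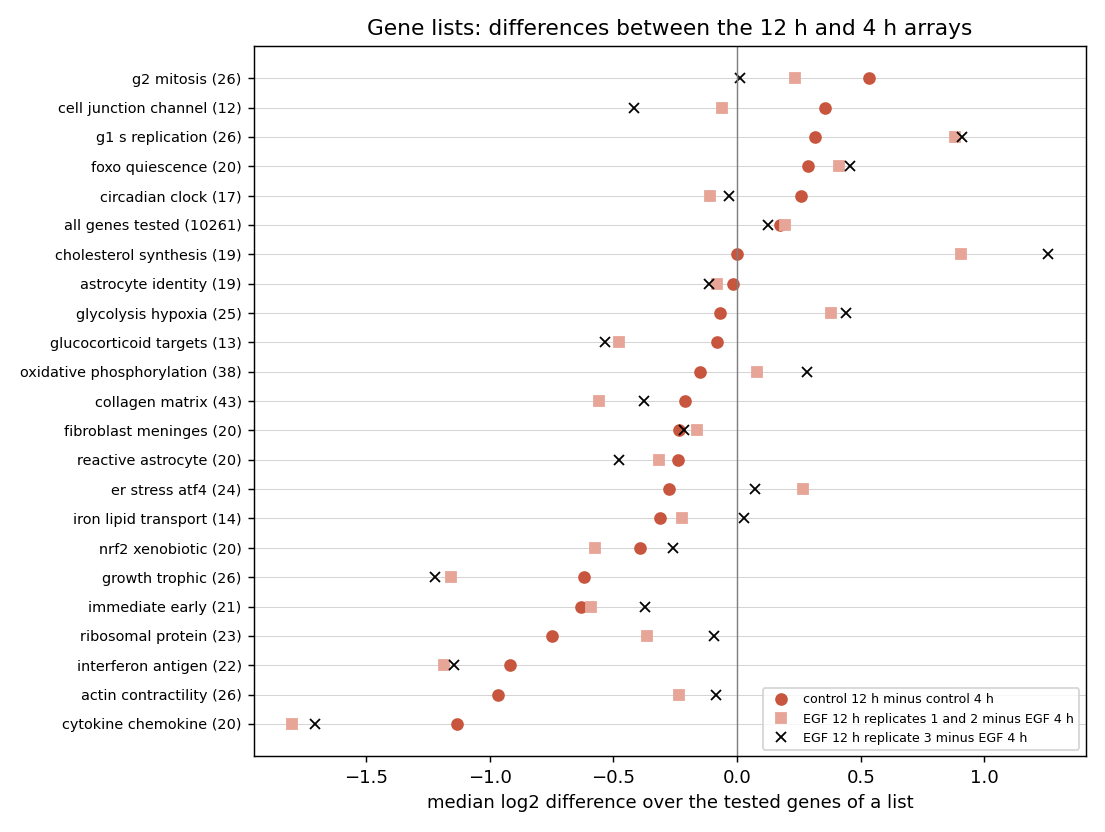
Median log2 difference over the tested genes of each list with 12 or more tested members (numbers in brackets), for the control groups, for EGF replicates 1 and 2 at 12 h against EGF at 4 h, and for EGF replicate 3 at 12 h against EGF at 4 h. The cytokine, interferon and growth factor lists lie left of 0 in all 3, and the ribosomal list lies at -0.75 between the controls and at -0.09 on the array with the low 3' to 5' ratio.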

How the data were processed

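The values are linear probe set intensities as deposited, which the authors obtained with MAS5 per the submitters' processing notes, whose version the sources used here do not give. The 2% trimmed means of all 12 arrays lay between 1500.456 and 1500.562, so no array was rescaled. Detection calls were not used. The 57 control probe sets served for the 3' to 5' ratios and for hybridisation controls and were not tested. Of the other 31042, 18625 passed a filter on the 12-array mean, set at its 40th percentile (215.4), and were tested. Logs to base 2 were taken after adding 24.4 signal units, the 10th percentile of the table.

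Group means over all 12 arrays came from limma 3.58.1 under R 4.3.3 (empirical Bayes with an intensity trend, 8 residual degrees of freedom), and the 12 h controls were compared with the 4 h controls in two-sided tests with Benjamini-Hochberg adjustment over all tested probe sets and a threshold of 0.05. The 4 groups share one estimate of the spread. The fit was tested on simulated data. The number of arrays limits the precision. Other values were computed with Python 3.11.15, and figures were drawn with matplotlib 3.10.9.

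The platform annotation gave 20832 probe sets 1 symbol, 436 several and 9831 none, and 20758 were matched to the current gene table by gene identifier. A gene was read from its tested probe set with the highest mean signal. Genes without a tested probe set are called dim and shown by their brightest probe set.

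Named were Gfap, Vim, Cldn11, Glul and Aldoc, the 12 largest differences in each direction among called genes whose groups did not overlap and whose higher group lay above the array median on all 3 arrays, the 4 or fewer members with the smallest p in every list, for cell type lists up to 3 with the highest percentile, and the control transcripts. Other list members in the text were chosen after their values were seen. The cultures, the gene lists and the tests were chosen with earlier results of these data known, so none of the counts is independent support. Counts and medians of lists are descriptions with no test.

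Replicate numbers did not pair the control groups, which belong to separate experiments: after group means were removed, same-numbered arrays of the control groups correlated at 0.02, -0.04 and -0.005. Alternatives were other offsets, filters, scalings and probe set rules, a fit over the 6 controls, a replicate block, and leaving out arrays. Leaving out both 4 h arrays of replicate 3 was added after seeing the data.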

Additional observations from a re-analysis of the deposited data

Results flagged for a closer look

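Replicate 3 of the 4 h controls stood apart in hybridisation controls that no comparison uses. The 3' probe set of the bacterial BioD control read 24460.8 signal units there and at most 594.8 on the other 5 control arrays. That of the phage Cre control read 70289.7 there and at most 89.6 on the others. EGF replicate 3 of 4 h, which belongs to no comparison here but enters the spread, shared the mark at 21080.5 and 62510.2. Without replicate 3 of the 4 h controls, 3904 probe sets were higher at 12 h and 3457 lower, against 4425 and 4033 with it.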

How the results depend on the processing

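The counts of higher and lower probe sets stayed within 1.5 times of 4425 and 4033 under every alternative run, from 3334 to 5534 higher and from 3040 to 4745 lower. Leaving out 1 control array gave 3334 to 3904 higher and 3333 to 3513 lower, the fit over the 6 control arrays 5475 and 4745, and no EGF replicate 3 of 12 h 5215 and 4654. Without both 4 h arrays of replicate 3 there were 4054 and 3454. The fit with the replicate number as a block gave 4384 higher and 3992 lower, changed no call of a named gene and moved no list count given here by over 1.5 times. The interferon, cytokine, growth factor, immediate early, actin, ribosomal, ATF4 and matrix counts of lower members stayed within 1.5 times under all alternatives run for them. Lower members of oxidative phosphorylation went from 17 to 10 with median centring, and leaving out 1 array gave 10 at the least. Higher clock genes went from 6 to 3 with the filter at the 60th percentile, which tested fewer genes. Higher mitosis genes numbered 5 to 8 with 1 array left out, and higher G1 and S phase genes 10 with median centring. The share of genes whose probe sets lay in one direction was 43.2% with no filter, 49.9% with the filter at the 60th percentile and 43.5% with median centring. The median percentile of Glul went from 93.0 to 91.4 among probe sets with 1 symbol.

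Of 123 named genes, 105 kept direction and call under all alternatives, and of 2077 values 16 lost the call, 15 gained it and 6 changed direction. Vim was among those that gained it, at 0.47 with quantile normalization. All 6 changes came from averaging the probe sets of a gene: Cldn11 -0.49, Nr1d2 -0.39, Sesn1 -0.04, Ndrg1 -0.11, Tjp1 -0.86 and Glul -1.12. Egr2 lost its call without replicate 1 or 3 of the 4 h controls or replicate 2 or 3 of the 12 h controls (limma, adjusted p 0.0755 to 0.0805). Signals near the offset of 24.4 limit the size of differences in Gjb6, Onecut2, Olr1, Mnda, Gdf6 and Tmem158.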
